A study of Caenorhabditis elegans with 357 samples.

Results

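Animals of the fourth larval stage (L4) from the Caenorhabditis elegans strain MT15434, genotype tph-1(mg280) II, were compared between 200 to under 300 and 100 to under 200 minutes after they had entered that stage. The minutes labelled for each animal decided its window, and the rule uses no measured expression value. The later window held 42 animals and the earlier 29, together 71 of the 164 tph-1 animals and of the 357 animals in the series. Each library was polyA RNA from 1 whole animal. Animals had been raised alone from the egg in small agar arenas with UV-killed OP50 bacteria, filmed, then cut with a needle and frozen. The same windows of the wild-type strain N2, with 32 and 26 animals, served for 1 comparison of strains. The labels name no other allele, agent or treatment for either strain. In a whole animal, fewer cells of a type and less RNA per cell cannot be told apart.

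The gene tph-1 encodes tryptophan hydroxylase, the enzyme that makes serotonin's precursor in a few neurons. Each larval stage of this nematode ends in a molt. The epidermis secretes a temporary precuticle, then the collagens of the next cuticle in a fixed order, and proteases finally free the animal from the old cuticle. Many of these genes rise and fall once in each stage, and L4 is the stage whose new cuticle is the adult one. The gonad makes sperm in the same stage, before it turns to oocytes. These processes give the order in which the results are presented.

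The numbers of animals were unequal over the 4 title sets, which are the numbers after the strain in the library titles and whose meaning the labels do not give. Sets 1 to 4 held 8, 2, 4 and 15 animals of the earlier window and 23, 3, 9 and 7 of the later. Mean labelled time was 143.1 ± 28.3 min (SD, n = 29) in the earlier and 248.6 ± 27.8 min (SD, n = 42) in the later window. Libraries held 437993 to 5175666 reads in genes (median 1592970), so that 1 read was worth between 0.193 and 2.28 RPM (reads scaled to a fixed library total). Genes at 1 RPM or more numbered 15620 ± 2244 (SD, n = 29) and 15160 ± 2233 (SD, n = 42), and mitochondrially encoded genes took 2.57% ± 0.731 and 2.58% ± 0.781 of the reads.

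Set 2 differed from the other sets in group values, though its single animals overlapped theirs in part. Its 2 earlier animals had a mean of 18380 genes at 1 RPM, against set means of 14520 to 16410 in that window. Single earlier animals of sets 1, 3 and 4 had as many as 18034, 18345 and 18431. The 3 later animals of set 2, at 225, 231 and 255 min, had col-38 at 9.45, 69.9 and 309 RPM. The 39 later animals of the other sets lay between 278 and 13640 RPM, a range that includes the value of 309. With set 2 left out, 595 genes were called higher and 331 lower, in place of 542 and 324.

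**Figure D1:**
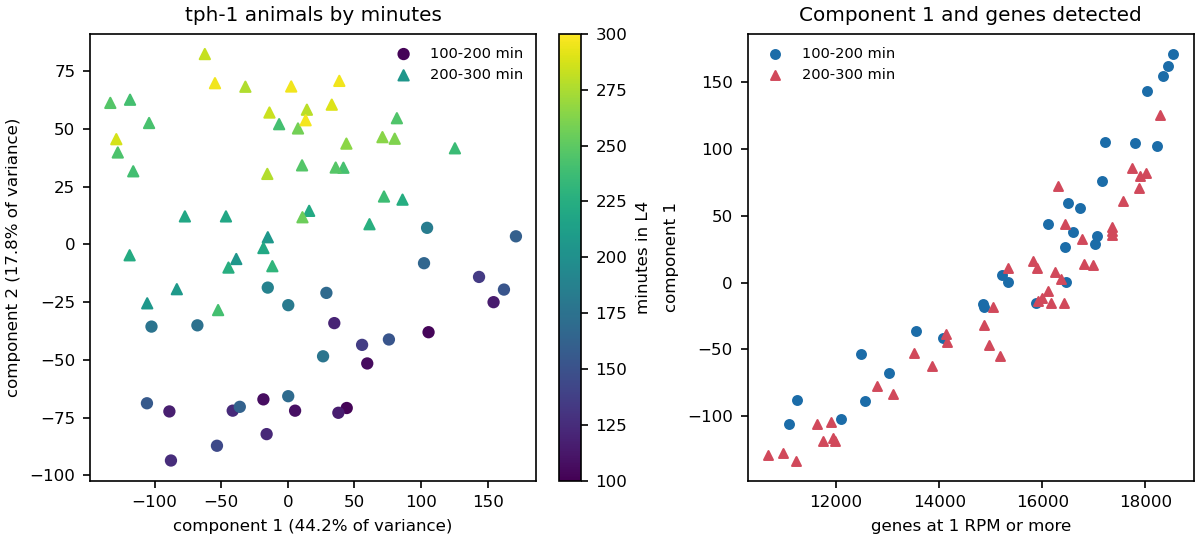
Left, principal components 1 and 2 of log2(RPM + 1) for the 71 tph-1 animals, coloured by minutes in L4, with circles for 100-200 and triangles for 200-300 min. Right, component 1 against the number of genes at 1 RPM or more. Component 2 separates animals by minutes (r = 0.898), whereas component 1 follows the genes detected (r = 0.936).

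Principal component 2 ordered these animals by minutes in L4. Component 1 held 44.2% of the variance, and its Pearson correlation with minutes was -0.208 (permutation p = 0.0814, adjusted 0.102), with a Spearman rho of -0.150 (permutation p = 0.213, adjusted 0.266). At a pseudocount of 5 that r was -0.445 (permutation p = 0.00013). Component 1 correlated with the number of genes at 1 RPM (r = 0.936, rho = 0.956, permutation p = 1e-05 for both, the smallest 100000 permutations can give, adjusted 2.5e-05) and with reads per library (r = -0.439, permutation p = 0.00016; rho = -0.432, permutation p = 0.00021). Component 2, taken up after its values had been seen, held 17.8% of the variance and correlated with minutes at r = 0.898 and rho = 0.904 (permutation p = 1e-05 for both, adjusted 2.5e-05, over 5 relations). Without the 2 animals farthest from the median minute, r was 0.899 for component 2 and -0.168 for component 1. Within sets 1, 3 and 4 the r of component 2 with minutes was 0.908, 0.864 and 0.859 and its rho 0.907, 0.896 and 0.737, with permutation p for r of 1e-05, 0.00018 and 1e-05 (adjusted 3e-05, 0.00036 and 3e-05 over 6 relations) and for rho of 1e-05, 0.00012 and 2e-04. That of component 1 was 0.0462, -0.348 and -0.0922 (rho 0.112, -0.203 and -0.103), with permutation p of 0.804, 0.243 and 0.687 (rho 0.547, 0.504 and 0.649). Set 2 held too few animals for a value of its own. The correlation of genes detected with minutes was -0.0257 (permutation p = 0.832; rho = -0.0203, permutation p = 0.865).

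Of 15019 genes tested, 542 (3.61%) were called higher and 324 (2.16%) lower at 200-300 min. A call needs a Benjamini-Hochberg adjusted p under 0.05 from limma on log2(RPM + 1), with title set as covariate, and a log2 change of at least 1 in size. Changes are given as later minus earlier on that scale with their SE, which understates the change of genes near 0 RPM. Among the called genes, 351 of those higher and 273 of those lower had that direction in all 4 sets. The median change over all tested genes was -0.20, and rescaling the libraries by TMM moved it to -0.03 and the calls to 707 higher and 240 lower. The quasi-likelihood test of edgeR on recovered reads called 892 and 267, a pseudocount of 5 gave 313 and 175, and 1 difference per set, with 4 values per gene, gave 43 and 58.

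**Figure D2:**
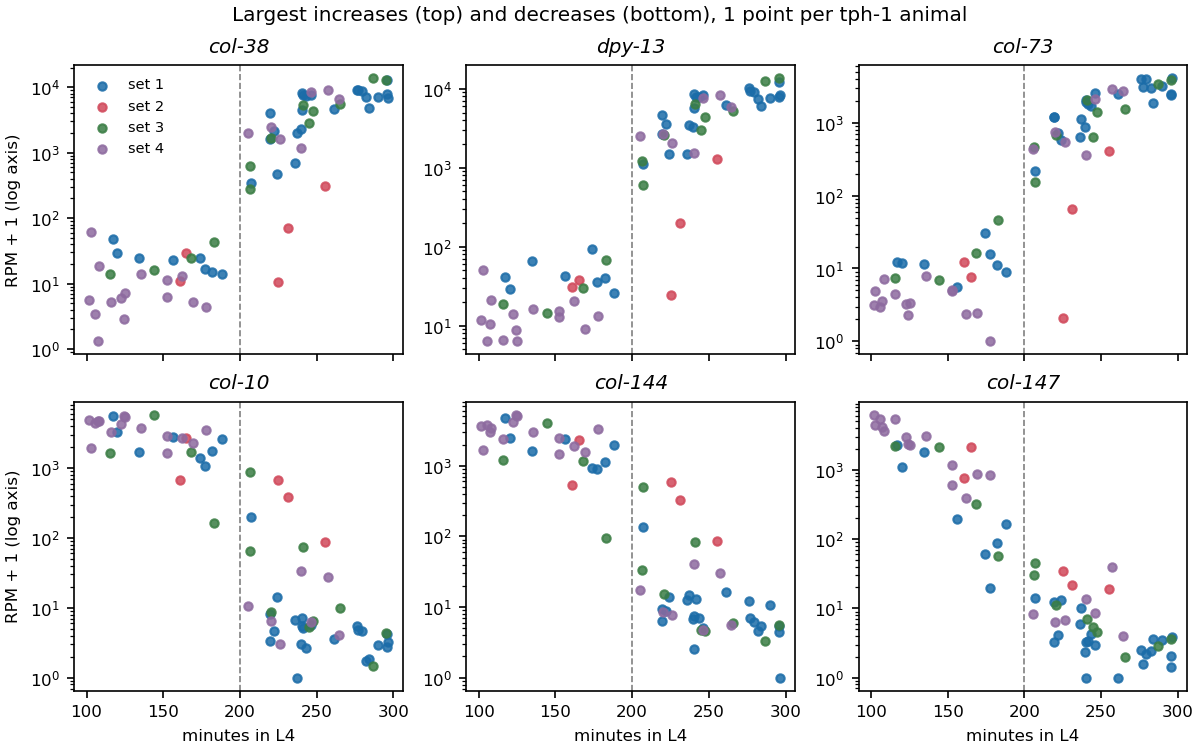
RPM + 1 (log axis) against minutes in L4 for the 3 largest increases (col-38, dpy-13 and col-73) and the 3 largest decreases (col-10, col-144 and col-147), 1 point per tph-1 animal, coloured by title set. The dashed line at 200 min divides the windows. The 3 later animals of set 2 have col-38 at 9.45, 69.9 and 309 RPM, and the highest later animal reaches 13640 RPM.

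The cuticle collagens changed in both directions. Of 154 cuticle collagens tested, 42 rose and 40 fell, with a median change of -0.28, beside 3.61% and 2.16% of all genes. Their summed level ran from 17180 to 76390 RPM (median 46480) in the earlier and from 24120 to 154200 RPM (median 65120) in the later animals. Among the 12 largest increases and 12 largest decreases, all but wrt-1 and F46F2.3 were collagens.

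Among genes with the same sign in all 4 sets, the largest increase was that of the collagen gene col-38 (WBcel235 chrII:8568035-8569088). It ranged over 0.319 to 59.6 RPM (median 12.9) in the earlier animals and 9.45 to 13640 RPM (median 4589) in the later. A single later animal, of set 2, lay within the earlier range. The log2 change was 7.39 ± 0.40, limma adjusted p = 1.0e-25. The largest decrease was that of another collagen gene, col-10 (chrV:9164292-9165307), at 161 to 5763 RPM (median 2809) in the earlier and 0 to 868 RPM (median 4.52) in the later animals. Its change was -7.76 ± 0.43, limma adjusted p = 3.0e-25, and 38 of the 42 later animals lay below the lowest earlier animal.

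Collagens known from mutants with a changed body shape rose in 10 of 12 tested members (median 5.15), against the 3.61% of all genes called higher. With 1 difference per set 7 were called higher. The summed level of the list ran from 89.1 to 6848 RPM (median 396) in the earlier and from 3942 to 85010 RPM (median 36110) in the later animals. The short-body collagen dpy-13 (chrIV:4235614-4236710) was at 5.33 to 92.3 RPM (median 19.8) and then at 23.3 to 13540 RPM (median 5490), a change of 7.0 ± 0.32, limma adjusted p = 3.6e-30. In sqt-3, whose product is a collagen of both body shape and viability, the levels were 6.42 to 2047 RPM (median 70.3) and 1144 to 18280 RPM (median 8210), with a change of 5.74 ± 0.38, limma adjusted p = 8.0e-22. The next members were dpy-4 at 6.73 ± 0.30, dpy-5 at 6.41 ± 0.36, sqt-1 at 5.25 ± 0.38, rol-8 at 5.16 ± 0.33 and lon-3, a body length collagen, at 5.14 ± 0.29. The members that were not called were dpy-14 (-0.55 ± 0.23, limma adjusted p = 0.072) and dpy-17 (-0.14 ± 0.30, limma adjusted p = 0.74).

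The blister collagens bli-1, bli-2 and bli-6 all rose (median 6.30), against 3.61% of all genes. With 1 difference per set 2 were called higher. The products of bli-1 and bli-2 are known as parts of the struts that hold the layers of the adult cuticle together. Levels of bli-2 (chrII:5651394-5652434) ran over 0.637 to 134 RPM (median 16.9) in the earlier and 74.5 to 5602 RPM (median 3050) in the later animals, and 41 of 42 later animals lay above every earlier one. Its change was 6.54 ± 0.31, limma adjusted p = 2.2e-29. For bli-1 (chrII:10708960-10712156) the ranges were 1.13 to 120.5 RPM (median 9.01) and 43.3 to 2863 RPM (median 1492), with 41 of 42 later animals above the earlier range and a change of 6.26 ± 0.30, limma adjusted p = 1.0e-28. Over the whole stage, the mean of bli-1 was 22.3 RPM at 100-200, 1396 at 200-300, 1020 at 300-400 and 9.16 at 400-500 min.

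The collagens named only by number divided, with 23 of 133 tested members higher and 40 lower (median -0.36). Of all genes 3.61% were called higher and 2.16% lower. Summed, the 155 listed members went from 12200-76200 RPM (median 45970) to 6098-59500 RPM (median 17780). Levels of col-147 (chrV:9632029-9633338) were 18.7 to 6187 RPM (median 1829) in the earlier and 0 to 44.5 RPM (median 3.17) in the later animals, with 37 later animals below the earlier range, and the change was -6.7 ± 0.37, limma adjusted p = 2.6e-25. The decrease of col-176 (-6.4 ± 0.52, limma adjusted p = 4.2e-17) was -0.18 in set 2 and between -7.87 and -6.20 in the other sets. Further decreases were those of col-144 (-6.97 ± 0.39), col-93 (-6.01 ± 0.34), col-160 (-6.01 ± 0.34) and col-166 (-5.32 ± 0.37). Rising numbered collagens besides col-38 included col-73 (6.88 ± 0.36), col-71 (6.09 ± 0.35) and col-17 (5.97 ± 0.34). Near-identical collagen copies may share reads, so single numbered members are uncertain where the counting could have split them.

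**Figure D3:**
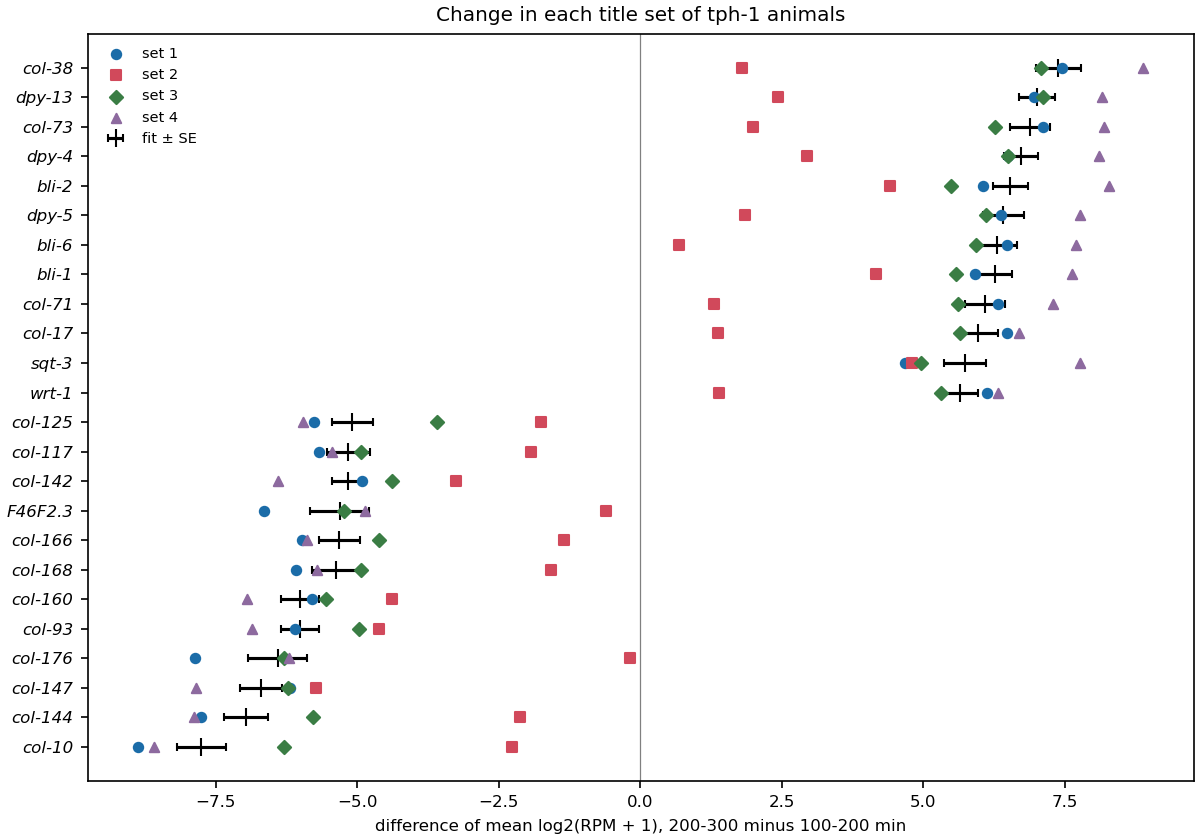
Difference of mean log2(RPM + 1), 200-300 minus 100-200 min, in each title set for the 12 largest increases and 12 largest decreases, with the fitted change and its SE in black. All 4 sets share the sign by the rule that chose these genes. Set 2, with 2 and 3 animals, gives 1.79 for col-38 where the other sets give 7.07 to 8.89.

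The furrow collagens, which form the circumferential grooves of the cuticle and are secreted before most other collagens, rose in 6 of 6 members (median 1.53). Their summed level was 80.3 to 4131 RPM (median 566) in the earlier and 107 to 6724 RPM (median 4251) in the later animals, so the windows overlapped widely. The largest change was in dpy-8, at 1.55 to 1810 RPM (median 14.7) and 50.3 to 3757 RPM (median 1890), a change of 5.09 ± 0.51, limma adjusted p = 3.5e-13. The smallest was in dpy-7, with medians from 126 to 377 RPM and a change of 1.05 ± 0.30, limma adjusted p = 0.0054. By 50-min bin, with 15, 14, 26 and 16 animals, dpy-8 had medians of 5.09, 125, 2092 and 1080 RPM, and dpy-2 had 32.8, 246, 640.0 and 506 RPM. Each was highest at 200-250 min, and the mean of dpy-2 was 24.5 RPM at 300-400 min. Left without set 4, which holds 15 of the 29 earlier animals, 1 of the 6 was called, and without libraries under 1000000 reads 4 were. With 1 difference per set 0 of the 6 were called. Of all genes 3.61% were called higher.

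Components of the precuticle, the matrix laid down before the collagens, rose in 6 of 18 members and fell in 2 (median 0.44). Of all genes 3.61% were called higher and 2.16% lower. The zona pellucida protein gene noah-1 ranged over 63.5 to 1464 RPM (median 456) and 130.0 to 2072 RPM (median 1401), with 20 of 42 later animals above the earlier range and a change of 1.48 ± 0.26, limma adjusted p = 5.0e-06. The lipocalin-related genes lpr-4 and lpr-5 changed by 2.48 ± 0.53 and 1.95 ± 0.41. Their bin medians, 62.5, 922, 2677 and 1237 RPM for lpr-4 and 189, 902, 2199 and 1112 RPM for lpr-5, were highest at 200-250 min. In the opposite direction, the fibrillin-like fbn-1 was at 194 to 937 RPM (median 554) and then at 4.6 to 497 RPM (median 63.9), a change of -2.86 ± 0.27, limma adjusted p = 3.2e-14. Without set 4, the precuticle list had 2 members higher and 2 lower, and with 1 difference per set it had 0 higher and 0 lower.

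**Figure D4:**
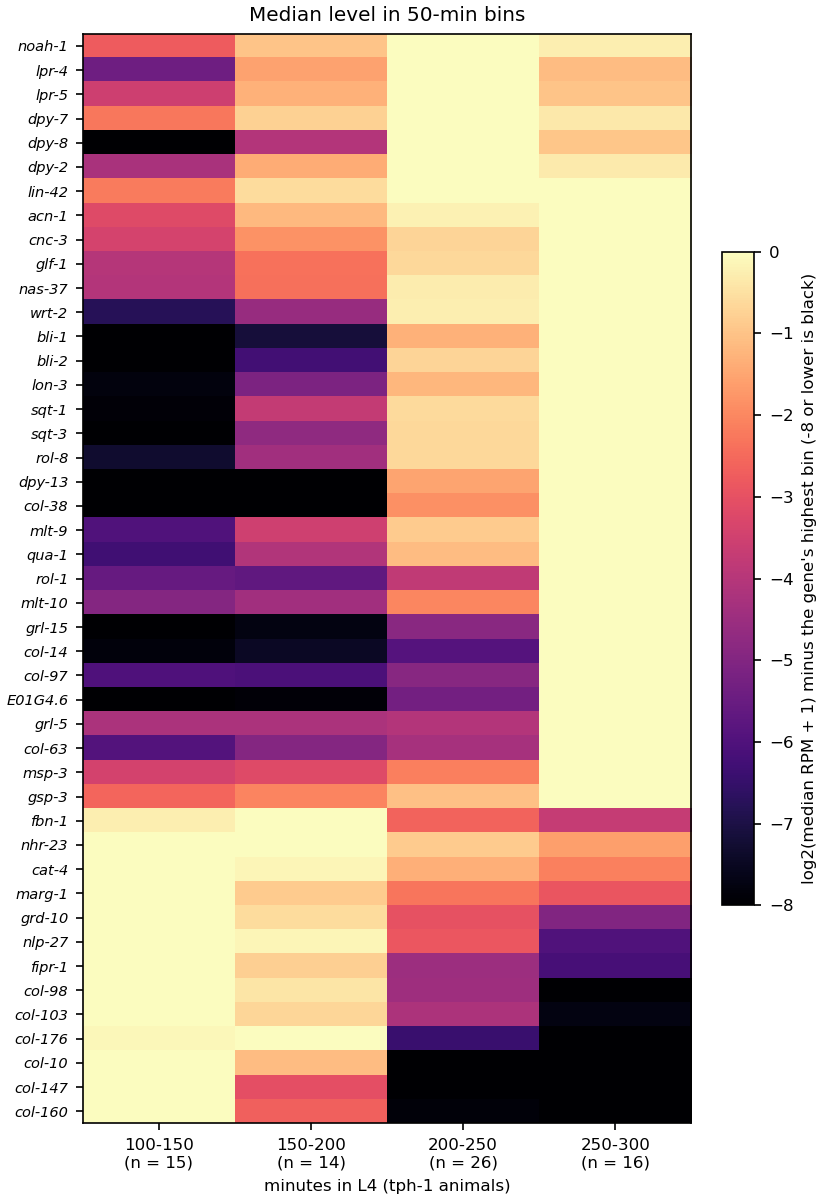
log2(median RPM + 1) of named genes in 4 bins of 50 min, relative to each gene's highest bin, for tph-1 animals. Furrow collagens and lpr genes are lightest at 200-250 min, bli and sqt genes at 250-300 min, and the bottom rows are lightest before 200 min.

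Genes required for molting rose in 7 of 18 members and fell in 1 (median 0.68), beside 3.61% and 2.16% of all genes. The secreted molting protein genes mlt-9 and mlt-10 changed by 3.79 ± 0.27 and 3.31 ± 0.29. Levels of mlt-9 were 1.29 to 76.2 RPM (median 12.6) and 69.8 to 709 RPM (median 258) (limma adjusted p = 6.0e-20). The astacin protease gene nas-37, whose product acts in shedding the old cuticle, was at 4.6 to 89 RPM (median 18.3) and then at 45.4 to 432 RPM (median 156), with 36 of 42 later animals above the earlier range and a change of 2.77 ± 0.20, limma adjusted p = 8.2e-20. The angiotensin-converting enzyme relative acn-1 rose by 1.94 ± 0.24. The member that fell was the cuticle peroxidase mlt-7 (-1.59 ± 0.20, limma adjusted p = 8.6e-10). Astacin metalloproteases as a family had 5 higher and 2 lower of 28 tested, with nas-4 the largest increase at 3.6 ± 0.27 and nas-3 the largest decrease at -1.82 ± 0.22. Of the higher ones, nas-37, nas-6 and nas-36 are also counted above among the molting genes.

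Among 27 genes for collagen folding and processing, 1 was higher and 1 lower by the call, while 14 were higher and 3 lower at adjusted p alone (median 0.33). TMM rescaling gave 4 higher and 1 lower. The called increase was the prolyl isomerase fkb-5, with medians from 295 to 662 RPM and a change of 1.08 ± 0.17, limma adjusted p = 3.9e-07. The called decrease was mlt-7, already counted among the molting genes. Without set 4, 0 members of this list were called higher. Cuticlins, the insoluble non-collagen cuticle proteins, had 3 higher and 1 lower of 35, led by cutl-18 (2.11 ± 0.20) and cutl-28 (2.09 ± 0.24), with cutl-3 lower (-1.8 ± 0.23). Over all genes 3.61% were called higher and 2.16% lower.

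Hedgehog-related ligand genes, a family that is large in nematodes and active in the epidermis, had 14 members higher and 5 lower of 41 tested (median 0.07). The warthog gene wrt-1 was at 2.3 to 20.7 RPM (median 9.62) in the earlier and 10.2 to 3284 RPM (median 732) in the later animals, a change of 5.65 ± 0.31, limma adjusted p = 2.1e-25. Its mean was 845 RPM at 200-300, 296 at 300-400 and 3.22 at 400-500 min. Further increases were wrt-2 at 5.24 ± 0.34, grl-15 at 4.89 ± 0.64 and qua-1, a gene needed for molting, at 3.85 ± 0.26. The largest decrease was grd-10, with medians from 206 to 12.6 RPM and a change of -3.28 ± 0.31, limma adjusted p = 2.0e-14. Of 26 patched-related receptor genes, 3 were higher and 1 lower, beside 3.61% and 2.16% of all genes. The increases included ptr-4 (1.26 ± 0.17) and ptc-3 (1.2 ± 0.14), and ptr-8 was lower (-1.61 ± 0.20). Without set 4, 1 receptor gene was called higher.

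**Figure D5:**
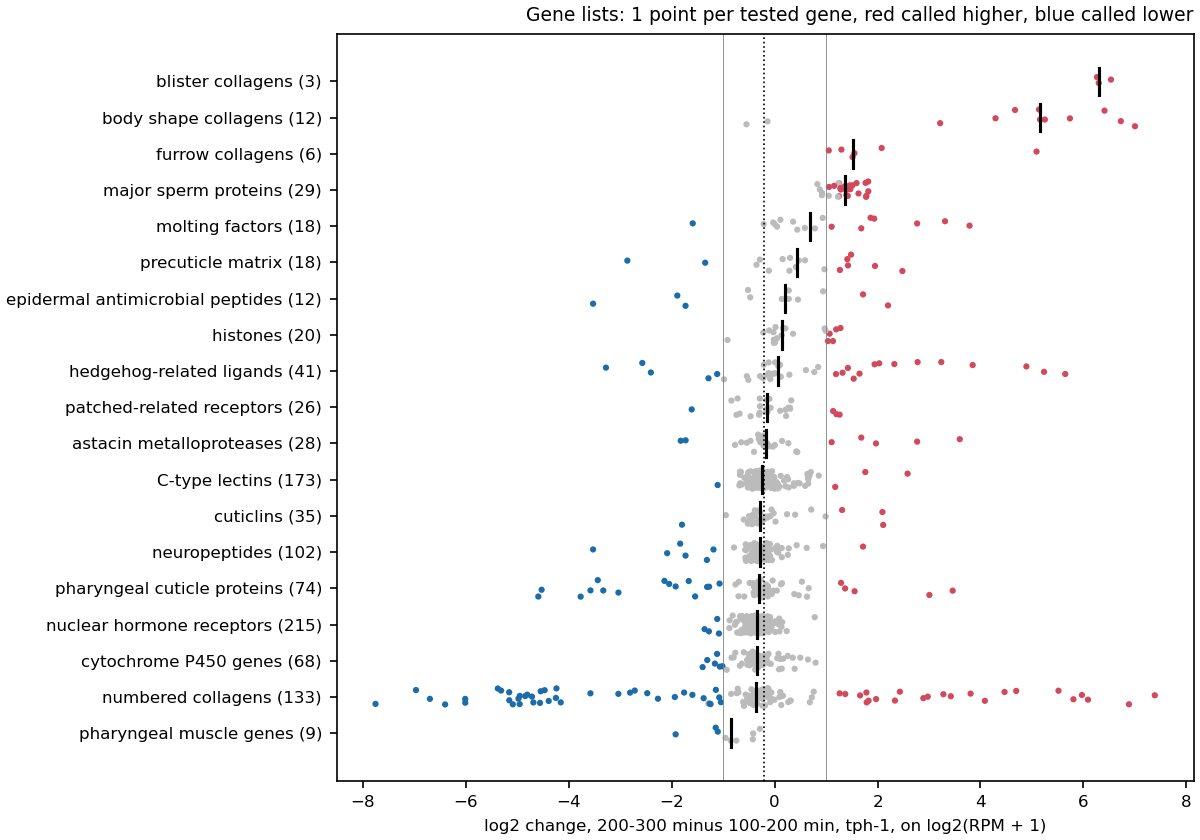
log2 change between the windows for every tested gene of the lists with at least 3 called members, with the number tested in brackets. Red and blue points were called higher and lower, grey points were not called, black bars are list medians, the dotted line is the median of all tested genes (-0.20) and thin lines mark a change of 1 either way. Blister and body shape collagens lie farthest to the right.

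Of 12 transcription factors that drive or time the molting cycle, 1 was called higher and 1 lower (median -0.54), beside 3.61% and 2.16% of all genes. The period-like timer lin-42 (chrII:1233236-1252359) ran over 13 to 113 RPM (median 52.7) and 62.4 to 217 RPM (median 109.6), a change of 1.26 ± 0.17, limma adjusted p = 5.0e-09. Its bin medians were 23.3, 73, 109.6 and 109.6 RPM. Without set 4 the difference was 0.95 (limma adjusted p = 1.4e-05), under 1, and the call was lost. The ROR-type receptor nhr-23, an early driver of the cycle, had 21.1 to 82.8 RPM (median 40.8) and 4.6 to 98.2 RPM (median 16.1), with a change of -1.08 ± 0.16, limma adjusted p = 3.9e-08. That call was lost under TMM rescaling at -0.90 (limma adjusted p = 1.0e-05), where the change is under 1 in size. The same held at a pseudocount of 5 (-0.92), by edgeR (-0.88), without set 3 (-0.98) and with recording camera as covariate (-0.9991). With 1 difference per set, neither lin-42 (1.23, limma adjusted p = 0.16) nor nhr-23 (-0.91, limma adjusted p = 0.29) was called. The grainyhead factor grh-1 had medians from 6.25 to 16.2 RPM and a difference of 0.94 ± 0.20, limma adjusted p = 1.4e-04, below 1, and passed at 1.12 under TMM rescaling. Log2 differences of the others, none called, were -0.74 ± 0.29 for nhr-25, -0.27 ± 0.13 for blmp-1, -0.66 ± 0.10 for myrf-1, -0.67 ± 0.09 for myrf-2, -0.27 ± 0.23 for bed-3, -0.48 ± 0.14 for ztf-6, -0.64 ± 0.30 for nhr-85, -0.10 ± 0.24 for elt-1 and -0.60 ± 0.11 for elt-3.

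The heterochronic genes, which set the identity of each stage, had lin-42 as the called member of 19 tested (median -0.33), beside 3.61% of all genes called higher. At an adjusted p under 0.05, 1 was higher and 7 lower, and 12 had an unadjusted p under 0.05. Without set 4, 0 of the 19 were called. The adult-fate factor lin-29 was at 36 to 36.8 RPM by median, a difference of 0.12 ± 0.12. Differences of lin-28, lin-14, lin-41 and hbl-1 were -0.23 ± 0.17, -0.49 ± 0.19, -0.62 ± 0.27 and -0.69 ± 0.17. The adult collagen col-19 had medians from 3.07 to 2.08 RPM and a difference of -0.14 ± 0.26, limma adjusted p = 0.71, and had a mean of 330.2 RPM at 400-500 min. None of 22 vulva genes was called by limma, while 2 were higher and 7 lower at an adjusted p under 0.05 and 11 had an unadjusted p under 0.05. Neither TMM rescaling nor edgeR called any. Of all 15019 tested genes, 1204 were higher and 2291 lower at an adjusted p under 0.05, and 5110 had an unadjusted p under 0.05. The inducing EGF ligand lin-3 had a difference of -0.44 ± 0.22 and the FGF gene egl-17 had 0.11 ± 0.22. Seam cell genes had 2 lower of 13, beside 2.16% of all genes. Among them was the fusogen aff-1 (20.6 to 7.61 RPM by median, -1.19 ± 0.13, limma adjusted p = 1.9e-12).

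The lining of the pharynx is a separate cuticle, rich in chitin. The list for it held abu, fip, fipr and pqn genes, most of them pqn. These were grouped by gene name, so a place in the lining is not established for each. Of this list, 5 members were higher and 15 lower of 74 tested (median -0.30), beside 3.61% and 2.16% of all genes. The largest decrease was pqn-31, with medians from 157 to 2.05 RPM and a change of -4.59 ± 0.29, limma adjusted p = 1.2e-22. In fipr-1 (chrV:12361301-12361744) the earlier animals had 45.4 to 562 RPM (median 189) and the later 0 to 39.3 RPM (median 3.57), so that every later animal lay below every earlier animal. It was the only one of the tested genes, 0.00666%, with that property among decreases, and its change was -4.53 ± 0.29, limma adjusted p = 6.1e-22. Related genes fipr-2 and fipr-9 changed by -3.58 ± 0.27 and -3.77 ± 0.27. The chitin synthase chs-2 and the chitinase-family gene cht-2 rose by 1.7 ± 0.24 and 1.63 ± 0.26, and the other 4 chitin enzyme genes were not called by limma. Among these, cht-1 had 0.89 ± 0.28 and passed under TMM rescaling, by edgeR and without set 2 or 3. The list named for pharyngeal muscle, in which not every member is a muscle gene, had 3 members lower of 9 (median -0.86). They were marg-1 (-1.92 ± 0.22), tnc-2 (-1.15 ± 0.20) and tnt-4 (-1.1 ± 0.17), with 1 of them called under TMM rescaling. The pharyngeal myosins myo-1 and myo-2 had differences of -0.74 ± 0.19 and -0.95 ± 0.19, short of the size needed.

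A gene outside the lists, chosen after its values had been seen, was the only one (0.00666% of tested genes) for which every later animal exceeded every earlier animal. It was glf-1 (chrIV:5885835-5889821), which encodes UDP-galactopyranose mutase. Earlier animals had 7.75 to 65.8 RPM (median 25.4) and later animals 68.3 to 373 RPM (median 171). The change was 2.6 ± 0.19, limma adjusted p = 8.2e-20, and its mean was 26.7 RPM at 400-500 and 5.27 RPM at 500-600 min.

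Major sperm protein genes, which encode the sperm cytoskeleton, rose in 22 of 29 tested members (median 1.37). Of all genes 3.61% were called higher. The summed level ran from 13 to 895 RPM (median 55.6) in the earlier and from 16.8 to 16250 RPM (median 259) in the later animals. In msp-3 the levels were 0 to 82.6 RPM (median 3.41) and 0 to 1324 RPM (median 15.4), with 16 of 42 later animals above the earlier range and a change of 1.82 ± 0.56, limma adjusted p = 0.011. Its differences in sets 1 to 4 were 3.34, -0.16, 1.63 and 0.53. Without set 1, 1 member of the list was called, against 15 to 23 when another set was left out. With 1 difference per set 0 members were called. Since these genes are near-identical copies, reads may be split between them and single members are uncertain. The sperm phosphatase genes gsp-3 and gsp-4 rose by 1.18 ± 0.32 and 1.35 ± 0.31, the called members among 21 sperm genes. Without set 1 this list had 1 call, without set 4 it had 4, and at a pseudocount of 5 it had 0. No gene of 29 for germline proliferation and meiosis, 26 for oocytes and eggshell or 5 vitellogenins was called by limma, where 1, 4 and 0 had an adjusted and 3, 5 and 1 an unadjusted p under 0.05. Of all 15019 tested genes, 3495 had an adjusted and 5110 an unadjusted p under 0.05. TMM rescaling and edgeR each called 3 oocyte genes higher.

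Genes of DNA replication had 2 members higher of 22 (median 0.35) and 11 with an adjusted p under 0.05, all higher. Of all 15019 tested genes, 3.61% were called higher and 1204 were higher at such an adjusted p. The ribonucleotide reductase gene rnr-1 was at 7.33 to 74.6 RPM (median 50.2) and then at 65.4 to 212 RPM (median 121), a change of 1.26 ± 0.12, limma adjusted p = 4.3e-14, and the helicase subunit mcm-2 changed by 1.07 ± 0.12, limma adjusted p = 5.3e-11. TMM rescaling raised the count to 5, and 1 was called without set 4. Histone genes had 5 higher of 20 tested of 49 in the table, including his-3 at 1.28 ± 0.22 and his-6 at 1.2 ± 0.17. Their medians were low, 1.16 to 3.94 RPM for his-3, and histone copies are near-identical, so that single members are uncertain. Leaving out set 4 left 2 histone genes called, and 0 were called at a pseudocount of 5 or with 1 difference per set. In N2, 1 histone gene was higher and 1 lower of 17 tested.

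Serotonin genes were described as a list because of the genotype. The targeted gene tph-1 (chrII:7549335-7551983) was at 0 to 19.3 RPM (median 2.3) in the earlier and 0 to 16.4 RPM (median 2.19) in the later animals, a difference of -0.07 ± 0.28, limma adjusted p = 0.85. In N2 its means were 4.15 and 3.97 RPM in the same windows, against 4.05 and 2.99 RPM in the mutant. The sources used here do not give which part of the transcript was counted, so these reads do not check the genotype. Of 14 serotonin genes, cat-4 was called lower, at 36.8 to 233 RPM (median 91.8) and then at 11.3 to 78.3 RPM (median 26), a change of -1.44 ± 0.16, limma adjusted p = 1.1e-11. It encodes GTP cyclohydrolase, which makes the cofactor that tryptophan hydroxylase uses. In N2, 1 of the 14 was called lower as well, with a list median of -0.46 against -0.31 in tph-1. The gene cat-4 was not among those whose change differed between the strains, described below. Of all genes 2.16% were called lower in tph-1. The transporter genes cat-1 and mod-5 had differences of -0.30 ± 0.27 and -0.27 ± 0.28, the decarboxylase bas-1 of -0.07 ± 0.09 and the receptors ser-1, ser-4 and mod-1 of -0.33 ± 0.29, -0.35 ± 0.22 and -0.47 ± 0.28.

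Neuropeptide genes had 1 member higher and 6 lower of 102 (median -0.29), beside 3.61% and 2.16% of all genes. The decreases were led by nlp-27, at 131 to 1621 RPM (median 621) and 0.658 to 804 RPM (median 35.9) (-3.53 ± 0.43, limma adjusted p = 4.3e-10), then nlp-26 (-2.09 ± 0.21), the insulin-like ins-33 (-1.84 ± 0.20) and nlp-28 (-1.73 ± 0.29). The genes nlp-27 and nlp-28 belong to a group of epidermal antimicrobial peptide genes, of which 2 were higher and 3 lower of 12 tested. That list also held cnc-3, which rose, at 4.72 to 104 RPM (median 37) and then 84.7 to 409 RPM (median 193) (2.2 ± 0.21, limma adjusted p = 2.6e-14), and cnc-8, which fell (-1.89 ± 0.30). No pan-neuronal gene of 18 was called by limma, with or without TMM rescaling, or by edgeR (median -0.25), while 6 had an unadjusted p under 0.05. Such a p was found for 5110 of all 15019 tested genes.

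Among lists for other tissues and general cell functions, limma called no member of 18 body-wall muscle genes (median -0.11), 79 ribosomal protein genes (-0.09), 12 mitochondrially encoded genes (-0.06), 20 V-ATPase subunits (-0.11), 18 spliceosome subunits (-0.22), 24 mitotic genes (0.07) or 15 heat shock genes (-0.37). In that order 6, 5, 0, 3, 8, 11 and 8 of them had an unadjusted p under 0.05, beside 5110 of all 15019 tested genes. TMM rescaling and edgeR each called 2 mitotic genes higher, edgeR called 1 heat shock gene lower, and 2 heat shock genes were lower without set 1. Neither TMM rescaling nor edgeR called a member of the other 5 lists. Under TMM rescaling the medians of the body-wall muscle, ribosomal, mitochondrial and V-ATPase lists were positive (0.08, 0.10, 0.13 and 0.08), so no direction is given for them. Body-wall muscle genes summed to 21850-67810 RPM (median 45430) and then 23140-57730 RPM (median 41560). Of 18 intestine genes, cpr-6, a cathepsin B-like protease gene, was higher (190.0 to 991 RPM by median, 2.16 ± 0.19, limma adjusted p = 9.3e-16) and the intermediate filament gene ifc-2 lower (-1.1 ± 0.14), the latter not called under TMM rescaling. Against the 2.16% of all genes called lower, 1 of 10 aquaporins (aqp-8, -1.18 ± 0.18), 6 of 68 cytochrome P450 genes and 4 of 215 nuclear hormone receptors were lower. Under TMM rescaling these counts were 0, 2 and 2, and without set 1 the receptors numbered 13. Of 16 fatty acid enzyme genes elo-4 was higher (1.05 ± 0.17) and elo-2 lower (-1.04 ± 0.12). Neither was called without set 4, and elo-2 was not called without set 1, under TMM rescaling or by edgeR. Of 173 C-type lectin genes 3 were higher, led by clec-180 (2.58 ± 0.22, limma adjusted p = 2.2e-16), and 1 lower. Over all genes 3.61% were called higher and 2.16% lower, the background for this list and for the intestine and fatty acid lists.

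Within the windows, the labelled minutes carried further change. A fit with window, title set and minutes asked whether genes moved with time inside each window, apart from the step between them. At a slope of at least 1 log2 unit per 100 min, 323 genes (2.15%) rose and 175 (1.17%) fell. Without set 1 the rising count was 198. Of the 542 genes higher in the later window, 227 also had a rising slope by this call and 1 a falling slope. Of the 324 lower genes, 140 had a falling slope and none a rising one. A further 96 genes rose and 34 fell inside the windows without being called between them. Both fits use the same animals, so these counts are a description.

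The steepest rise was that of E01G4.6, a gene with no named role in the sources used here. Its slope was 6.45 ± 0.97 per 100 min (limma adjusted p = 8.0e-07), and its bin medians were 3.36, 8.11, 55.1 and 2183 RPM. Next came col-14 (6.15 ± 0.91), grl-15 (5.82 ± 0.88), col-97 (5.19 ± 0.76), col-63 (5.15 ± 0.90) and grl-5 (5.14 ± 0.84). The medians of col-14 were 7.72, 10.1, 32.4 and 1960 RPM, and those of grl-5 were 10.7, 10.7, 12 and 215 RPM. In these 3 genes the last bin had the highest median. In set 2 the differences of E01G4.6 and grl-15 between windows were -2.14 and -1.99. The steepest falls were those of col-98 (-5.14 ± 0.69, limma adjusted p = 6.6e-08), F46F2.3 (-4.92 ± 0.70), nlp-27 (-4.42 ± 0.56), col-103 (-4.29 ± 0.57), col-42 (-4.19 ± 0.59) and col-168 (-4.15 ± 0.54). For col-98 the bin medians were 5730, 4317, 262 and 11.8 RPM. By contrast, the furrow collagens had slopes between -0.78 and 0.37, and none was called. All 3 blister and 10 of 12 body shape collagens had a rising slope by the call, as did no major sperm protein gene.

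The called genes differed in when their level was highest over the stage. By mean log2(RPM + 1) in the 6 windows of 100 min, 171 of the 542 higher genes were highest at 200-300 min, 153 at 300-400, 52 at 400-500 and 166 at 500-600 min. Of the 324 lower genes, 209 were highest at 0-100 and 89 at 100-200 min, 9 at 400-500 and 17 at 500-600 min. The choice of the genes fixes which of these 2 windows is higher, so the counts describe only the rest of the stage. Means of col-125 were 6158 RPM at 100-200, 346 at 200-300, 4260 at 300-400 and 12650 RPM at 500-600 min. Means of col-176 were 299 RPM at 200-300 and 5.91 RPM at 500-600 min.

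The wild-type N2 animals of the same windows changed in 750 genes upward (5.6% of 13397 tested) and 462 downward (3.45%), at mean times of 145.2 and 247.6 min. Of 13218 genes tested in both strains, 861 were called in tph-1 and 1205 in N2. The strains shared 784 calls in the same direction, 91.1% of the tph-1 and 65.1% of the N2 calls, and none in opposite directions. The difference between the strains was tested itself, as a strain-by-window interaction over 14517 genes. By that test 2 genes (0.0138%) changed more positively in tph-1 and 1 (0.00689%) more negatively. An unadjusted p under 0.05 was found for 265 of the 14517 genes. That share is smaller than the 0.05 expected where no gene differs. The reason was not tested, so the few calls do not show that the strains changed alike. Without set 1 the counts were 0 and 1, and without set 3 or 4 they were 1 and 0. Reads per animal were higher in N2, with means of 3864000 and 3757000 against 1813000 and 1834000 in tph-1, and the share of this in the result was not tested. For the lead genes the N2 changes were 8.25 ± 0.79 for col-38, 6.91 ± 0.59 for bli-2, -6.34 ± 0.66 for col-10 and 3.06 ± 0.37 for glf-1. None of these 4 passed the interaction test, and the SE of the col-38 difference of -0.87 was 0.85.

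Of the 3 genes that differed, C32H11.4 was the only one called in tph-1 itself. It was at 11.9 to 141 RPM (median 30.8) in the earlier and 12.3 to 409.5 RPM (median 73.4) in the later tph-1 animals, a change of 1.53 ± 0.22, limma adjusted p = 2.8e-08. In N2 it ran from 0.225 to 70.3 RPM (median 15.9) and then from 1.92 to 52.9 RPM (median 11.5), a change of -0.19 ± 0.29. The difference of changes was 1.72 (limma adjusted p = 0.027), lost without set 1 (1.50, limma adjusted p = 0.88), set 3 (1.79, 0.058) or set 4 (1.74, 0.10). The enoyl-CoA hydratase family gene ech-9 had medians of 3.22 and 0.656 RPM in tph-1, where it was below the filter of that strain's own fit, and 8.16 and 0.474 RPM in N2, a difference of changes of 1.98 (limma adjusted p = 0.00074), lost without set 1 (1.74, limma adjusted p = 0.096). F55C10.4 had medians of 1.59 and 3.80 RPM in tph-1 and 0.666 and 10.2 RPM in N2, a difference of -1.66 (limma adjusted p = 0.048), lost without set 2 (-1.61, limma adjusted p = 0.14), set 3 (-1.39, 0.61) or set 4 (-1.61, 0.58). Levels of these last 2 genes were a few reads per library in tph-1, where 1 read was worth 0.193 to 2.28 RPM.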

How the data were processed

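Single tph-1 and N2 animals were profiled by polyA RNA sequencing. Per the submitters' processing notes, STAR 2.7.9a was used. How it was set, the build and annotation behind the counts, and whether strand was used in counting: not given in the sources used here. Overlapping, antisense and near-identical genes are therefore uncertain. The authors deposited RPM per gene, 1 table per strain, as the table names say. Low values were whole multiples of 1 read in 100% of cases within 0.1 reads, so reads were recovered. Each library is a separate animal, and the labels name no culture or batch, so p-values measure the spread between these animals.

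Genes reaching 5 RPM in 10% or more of a fit's animals were tested with limma 3.58.1 (R 4.3.3, trend) on log2(RPM + 1), a pseudocount of 1, with title set as the replicate block and Benjamini-Hochberg adjustment over all genes tested. Scripts were tested on simulated data. Alternatives were pseudocounts of 5 and 0.1, other filters, TMM, edgeR 4.0.16 quasi-likelihood on recovered reads, no block, single sets left out, 1 difference per set, recording camera, depth, genes detected, and libraries under 1000000 reads left out. Symbols were matched to the Ensembl annotation of WBcel235 (18734 of 19397). Correlations used 100000 two-sided permutations. Title sets stand for no stated batch.

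The windows were set by labelled minutes alone, but this comparison was picked, and the 42 gene lists were chosen, with earlier results of these data known. Named genes were the 12 largest increases and 12 largest decreases with 1 sign in all 4 sets, up to 4 called members per list, members of lists of at most 14 genes, the 6 steepest slopes and up to 6 strain differences each way, and fixed regulators and markers. Depth limits low genes: 1 read was worth up to 2.28 RPM.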

Additional observations from a re-analysis of the deposited data

Results flagged for a closer look

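The change between the windows differed between strains by the interaction test for 3 genes, which is what singled them out. The difference, tph-1 minus N2, was 1.98 for ech-9 (limma adjusted p = 0.00074), 1.716 for C32H11.4 (limma adjusted p = 0.027) and -1.659 for F55C10.4 (limma adjusted p = 0.048). For ech-9 the N2 means were 11.5 ± 9.40 RPM (SD, n = 26) and 0.853 ± 0.964 RPM (SD, n = 32), and those of tph-1 were 2.88 ± 2.34 RPM (SD, n = 29) and 1.12 ± 1.35 RPM (SD, n = 42). The pooled tph-1 means do not allow for title set: medians in the earlier and later window were 0.192 and 0.553 RPM in set 1 and 3.38 and 3.64 RPM in set 4, which holds 15 of the 29 earlier and 7 of the 42 later animals. C32H11.4 rose in tph-1, from 39.2 ± 31.9 to 95.9 ± 72.7 RPM (SD), and had 19.1 ± 15.6 and 15.2 ± 11.5 RPM (SD) in N2. F55C10.4 went from 0.831 ± 0.950 to 17.2 ± 17.6 RPM (SD) in N2 and from 1.99 ± 1.87 to 5.01 ± 3.93 RPM (SD) in tph-1. The call was lost for ech-9 under a pseudocount of 0.1 (2.87, limma adjusted p = 0.26) and without set 1 (1.74, limma adjusted p = 0.096). For C32H11.4 it was lost under that pseudocount, TMM rescaling, no replicate block and without set 1, 3 or 4, and for F55C10.4 under pseudocounts of 5 and 0.1, no filter, TMM rescaling and without set 2, 3 or 4. Reads per animal also differed between the strains, and their part in these differences was not tested.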

How the results depend on the processing

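The cause of the differences below was not tested. The counts of 542 higher and 324 lower genes became 313 and 175 at a pseudocount of 5. edgeR on recovered reads called 892 higher and 267 lower. Without the replicate block 649 were higher and 440 lower. With 1 difference per set, which has 4 values per gene, 43 and 58 were called. Leaving out 1 set gave 394 to 595 higher and 288 to 451 lower. The 323 rising and 175 falling slopes inside the windows became 440 and 297 without the replicate block, and 198 to 280 and 120 to 234 with 1 set left out. The strain difference, 2 genes more positive and 1 more negative, became 0 and 0 at a pseudocount of 0.1, 1 and 0 when a mean above 10 RPM was required, 1 and 0 under TMM rescaling, 3 and 2 by edgeR, and 1 and 3 without the replicate block. It had no gene more negative with no filter, and with 1 set left out gave 0 to 2 and 0 to 1. The correlation of component 1 with minutes became -0.445 (permutation p = 0.00013) at a pseudocount of 5. Of 3705 checks of named genes, 3477 kept their call status, 206 lost it and 22 gained it, and none changed sign while called. Most losses were with 1 difference per set (95), without set 4 (23) and at a pseudocount of 5 (20). Genes detected as a covariate gave 569 and 310, and libraries over 1000000 reads gave 603 and 328, both chosen after seeing the data. Depth limits genes near 1 read, worth up to 2.28 RPM.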
